A study of Bos taurus with 4 samples.

Results

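Integrins and other cell adhesion molecules were examined in bovine gamma delta T cells, as 64 genes measured by 100 probe sets out of 9155 named genes on the array. Members were taken from the platform's probe-to-gene table by symbol: integrin alpha and beta chains, ICAM, JAM, CADM, cadherin, protocadherin, claudin, selectin and nectin genes, together with F11R, VCAM1, PECAM1, CD44, CD47, CD58, CD99, CRTAM and TLN1. ITGAX, PXN and OCLN had no probe set with their symbol alone in that table and were not analysed here. Sorted cells (over 97% pure) from the peripheral blood of 2 calves, numbered 301 and 303, were rested overnight and then held for 4 h either with an aqueous extract of apple polyphenol (APP, 42.2 µg/ml) or with phosphate-buffered saline (PBS), the vehicle. The labels' protocols give the calves' age as 1 to 6 months, and the series' design text calls them neonatal. Each calf gave 1 APP array and 1 PBS array, so there were 2 arrays per treatment. The sources used here give neither the breed and sex of the calves nor the makeup of the extract.

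Adhesion molecules hold lymphocytes to vessel walls, matrix and other cells. Integrins are pairs of an alpha and a beta chain that bind matrix proteins or membrane ligands once they have been activated from inside the cell, a step in which talin (TLN1) links the beta chain to actin. Ligands of the immunoglobulin superfamily (ICAMs, VCAM1, JAMs, nectins) sit on the opposing cell, selectins catch rolling cells through sugar ligands, and cadherins and claudins form the junctions of solid tissues. Well-known chain pairs of T cells are ITGAL with ITGB2, ITGA4 with ITGB1 or ITGB7, and, on tissue lymphocytes, ITGAE with ITGB7. The pairs that use ITGB7 are linked to the gut.

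After APP, 2 of the 64 adhesion genes rose by over 10-fold, JAM2 (18.7-fold) and CRTAM (14.0-fold). CD44, ICAM1 and CADM1 rose by 1.6-fold to 2.1-fold, and the integrin chains ITGAE, ITGA4 and ITGB7 fell by 1.8-fold to 1.9-fold. In all, 15 members rose and 5 fell at an adjusted p under 0.05, in a limma fit blocked by calf, with Benjamini-Hochberg adjustment over all 9155 genes, and 44 did not pass. That is 23.4% up and 7.81% down, beside 23.0% of all genes up and 29.7% down (52.7% in either direction). The share that rose thus lay near that of all genes, and the share that fell lay below it. The median change of the 64 was 0.09 on the log2 scale (0.11 in calf 301 and 0.07 in calf 303), against 0.01 over all genes, and the median size of change without regard to sign was 0.20, against 0.32. A change of at least 2-fold in both calves was seen upward in 2 members (3.50% of all genes) and downward in none (6.29% of all genes). Both APP arrays lay above both PBS arrays for 26 members, or 40.6% (36.6% of all genes), and below them for 11, or 17.2% (37.2% of all genes). With no replicate block 7 members rose and 4 fell. Beside the deposited scale, arrays were also scaled to the hybridization controls, bacterial RNA normally added to the hybridization mix. This moved the median change of all genes to -0.84. Then 2 members rose and 59 fell, beside 3.12% and 89.4% of all genes. Without either PBS array, in fits with no block, 5 members rose. The p-values rest on 2 animals, with the spread of a gene pulled toward that of all genes by limma. In the fit scaled to the hybridization controls limma gave every gene the same spread. Its calls and p-values thus carry no spread of the single gene.

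**Figure D1:**
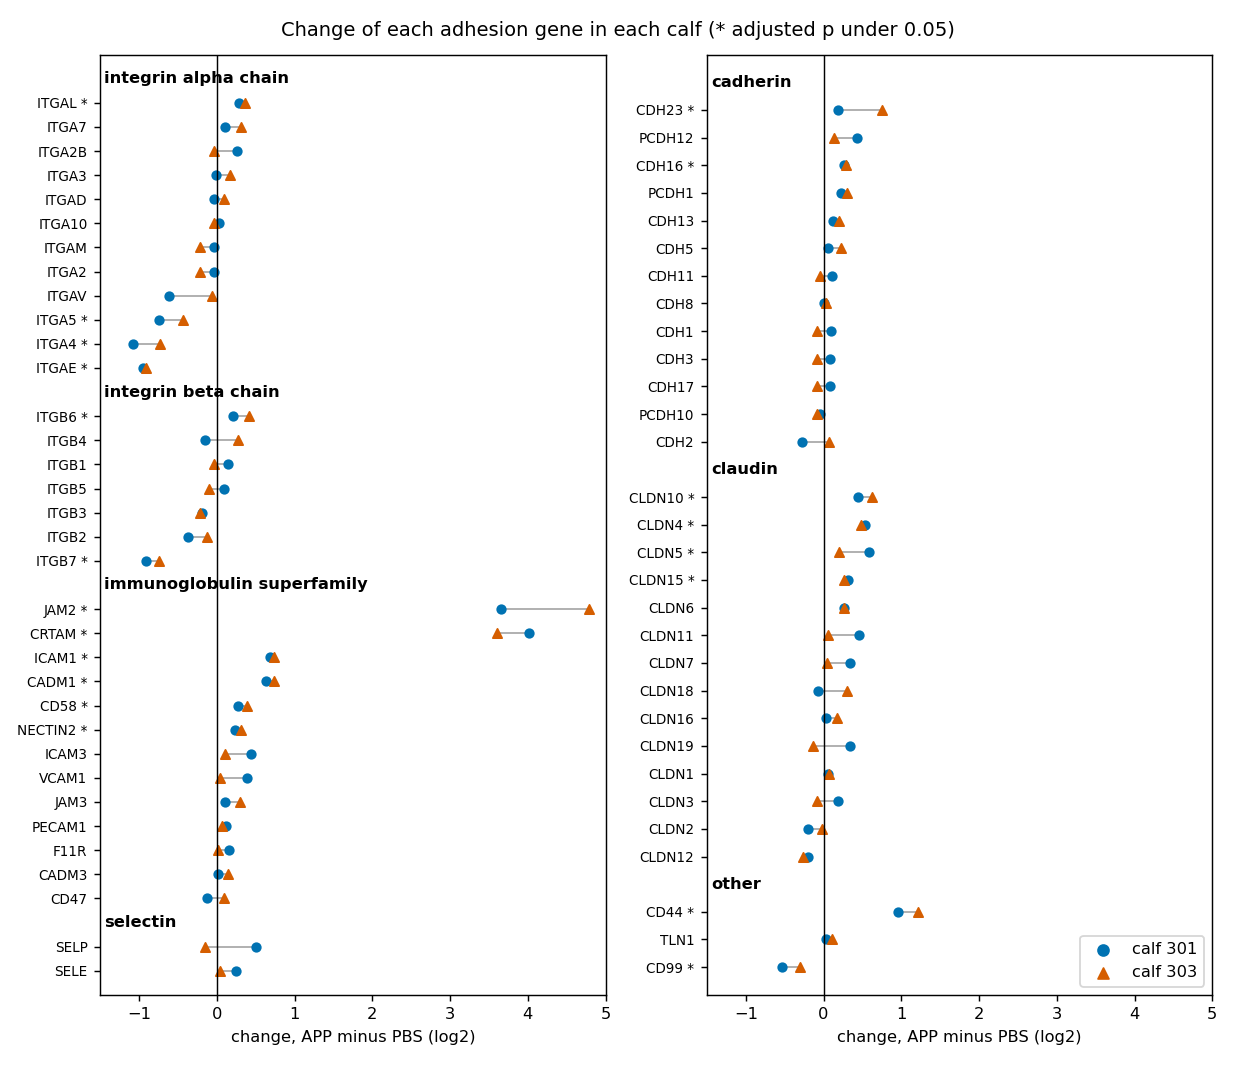
Change of each of the 64 adhesion genes (APP minus PBS, log2) in calf 301 (circles) and calf 303 (triangles), by family, with an asterisk where the adjusted p was under 0.05. JAM2 and CRTAM lie above 3.6 in both calves, and ITGAE, ITGA4 and ITGB7 lie between -1.08 and -0.73. Scaled to the hybridization controls, all asterisked rises other than JAM2, CRTAM and CD44 lie below 0.

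The deposited values bear on how these changes can be read. Each is a linear ratio of a probe set's signal to about its own median over the 4 arrays, where 1 is that median, so the level of a gene is lost and it is unknown which members lay near background. For the same reason the presence of T cell genes and the absence of genes of other cell types could not be checked. Of 11 measured gamma delta T cell markers 7 fell and 1 rose (63.6% and 9.09%, beside 29.7% and 23.0% of all genes). Their median change was -0.53, while CD3D (-0.13), CD3E (-0.08) and TARP (-0.01) did not pass. Of 3 B cell markers all 3 fell (-1.04 for BLK, -0.80 for CD79A and -0.56 for MS4A1). Of 10 monocyte and dendritic cell markers 3 rose (30.0%), with CD68 up by 1.90 in calf 301 and 2.71 in calf 303. The other 7 did not pass, and the median change of the list was 0.10. Its mean log2 ratio, in which CD68 weighs most (mean change 2.31), was 0.12 and 0.21 on the APP arrays. On the PBS arrays that mean was -0.23 and -0.19. Of 10 endothelial and epithelial markers 3 rose and 1 fell, 1 of 2 platelet markers rose, 1 of 6 natural killer markers rose and 1 fell, 2 of 5 alpha beta T cell markers rose and 1 fell, and none of 5 red cell markers passed (limma's test). The alpha beta T cell list also differed between the calves. Its mean log2 ratio was -0.31 in calf 301 and 0.34 in calf 303 with APP, and -0.59 and 0.23 with PBS. CD68 was the only one of these markers to rise when scaled to the hybridization controls. The part of these cells in the changes of the adhesion genes was not tested. In bulk cells a change in the share of a cell type and a change of RNA per cell cannot be told apart.

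Of the 5 largest rises 4 belonged to the immunoglobulin superfamily, with 6 of its 13 genes up and none down (46.2% up, beside 23.0% of all genes) and a median change of 0.27. Under hybridization-control scaling 2 of the 13 rose and 9 fell, beside 3.12% and 89.4% of all genes. The median of the 13 was then -0.58. JAM2 encodes a junctional adhesion molecule best known from endothelium, which in humans binds JAM3 and the integrin of the ITGA4 and ITGB1 chains. Its first probe set had ratios of 1.803 and 3.643 on the APP arrays of calves 301 and 303, against 0.151 and 0.163 on their PBS arrays. The second probe set had 1.827 and 4.256 with APP, against 0.137 and 0.125 with PBS. Both probe sets were high on both APP arrays with no overlap, and the PBS values of the calves lay close together while the APP value of calf 303 was over 2-fold that of calf 301. The log2 change was 3.66 in calf 301 and 4.79 in calf 303 (mean 4.22 ± 0.80, SD, n = 2 calves, limma's adjusted p = 2.66e-05), the 7th largest rise of all genes that rose.

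CRTAM encodes a receptor of activated cytotoxic and innate-like lymphocytes whose ligand, in humans and mice, is CADM1. Its 1 probe set had ratios of 1.797 and 2.053 on the APP arrays of calves 301 and 303, against 0.111 and 0.169 on the PBS arrays. The log2 change was 4.02 in calf 301 and 3.60 in calf 303 (mean 3.81 ± 0.29, SD, n = 2 calves, limma's adjusted p = 6.92e-06), the 13th largest rise. CADM1 itself, an adhesion molecule of the nectin-like group, rose by much less, with ratios of 1.201 and 1.231 with APP against 0.774 and 0.737 with PBS. The groups did not overlap, and the log2 change was 0.69 ± 0.08 (SD, n = 2 calves, limma's adjusted p = 0.00106), or -0.16 when scaled to the hybridization controls. Receptor and ligand genes were thus both higher in both calves on the deposited scale.

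ICAM1, the ligand of the ITGAL and ITGB2 integrin, had ratios of 1.216 and 1.242 with APP, against 0.759 and 0.746 with PBS. These 4 values fell into the 2 treatments with almost no spread between the calves, and the log2 change was 0.71 ± 0.04 (SD, n = 2 calves, limma's adjusted p = 0.000856), or -0.14 when scaled to the hybridization controls. CD58, which in humans is the ligand of CD2, rose by 0.27 in calf 301 and 0.39 in calf 303 (limma, adjusted p = 0.0261), with 2 of its 3 probe sets up by 0.55 and 0.60 and the third at -0.15. NECTIN2, a ligand of lymphocyte receptors such as CD226, rose by 0.23 and 0.32 (limma, adjusted p = 0.0475). Of its 3 probe sets 1 passed (0.45, limma's adjusted p over probe sets = 0.0169). The others averaged 0.25 and 0.12, the latter with -0.10 in calf 301 and 0.33 in calf 303. Scaled to the hybridization controls, CD58 stood at -0.52 and NECTIN2 at -0.58.

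The other 7 genes of this family did not pass the test. ICAM3, an ICAM of resting leukocytes in humans, changed by 0.44 in calf 301 and 0.11 in calf 303. VCAM1, an endothelial ligand of ITGA4 integrins, changed by 0.39 and 0.04. JAM3, a partner of JAM2, changed by 0.11 and 0.30, so that the JAM genes split, with JAM2 far above JAM3 and F11R (0.16 and 0.01). PECAM1, found on endothelium, platelets and leukocytes, changed by 0.11 and 0.06, from 1 probe set that rose by 0.42 (limma, adjusted p over probe sets = 0.0215) and 1 at -0.25. CADM3 changed by 0.01 and 0.14, and CD47, the signal to SIRPA on phagocytes, by -0.13 and 0.10.

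**Figure D2:**
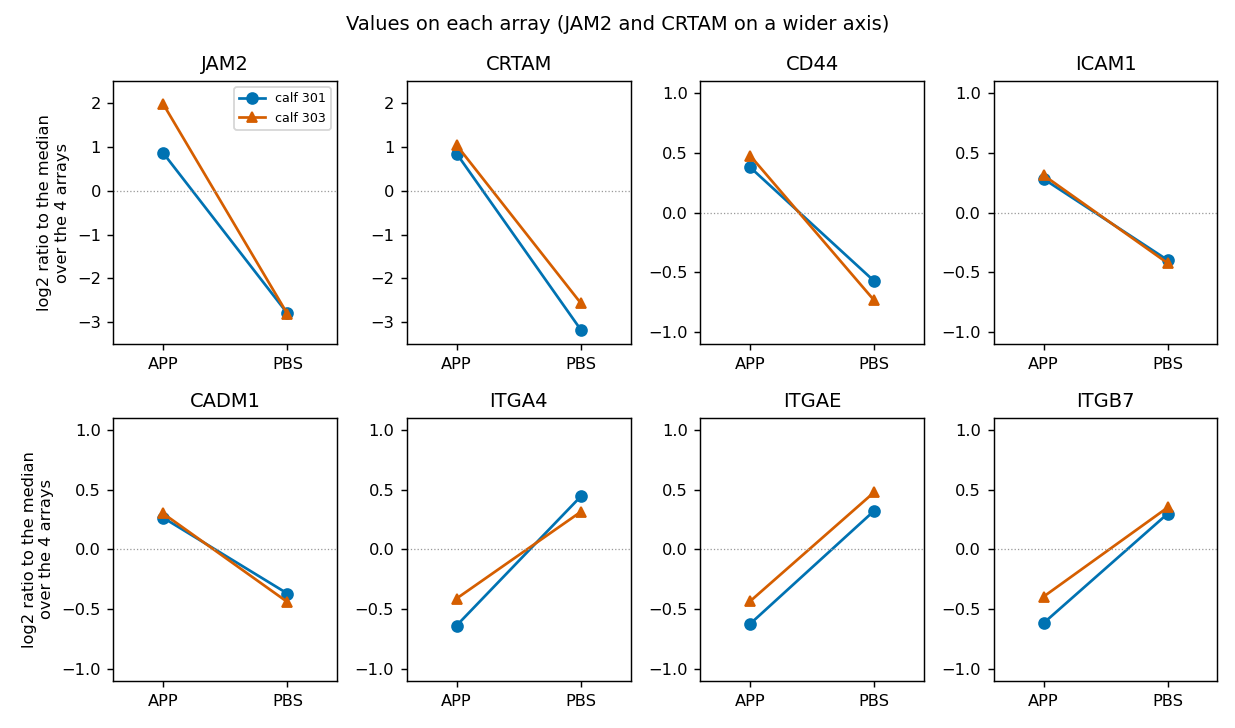
Log2 ratio to the median over the 4 arrays for 8 adhesion genes on the APP array (left) and the PBS array (right) of calf 301 (circles) and calf 303 (triangles), with JAM2 and CRTAM on a wider axis. APP values lie above PBS values in both calves for JAM2, CRTAM, CD44, ICAM1 and CADM1, and below them for ITGA4, ITGAE and ITGB7. Scaled to the hybridization controls, the changes of ICAM1 and CADM1 turn to -0.14 and -0.16.

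CD44, the main receptor for hyaluronan and a marker of activated T cells, was the largest rise outside the immunoglobulin superfamily. Its ratios were 1.301 and 1.392 with APP, against 0.672 and 0.601 with PBS, with no overlap. The log2 change was 0.95 in calf 301 and 1.21 in calf 303 (mean 1.08 ± 0.18, SD, n = 2 calves, a 2.12-fold rise, limma's adjusted p = 0.000211), or 0.23 when scaled to the hybridization controls (adjusted p = 0.14). CD99, a glycoprotein that leukocytes use when they cross endothelium, fell by 0.42 on average. The fall came from the probe set with ratios of 0.615 and 0.717 with APP against 1.273 and 1.321 with PBS, while the other changed by -0.02 in calf 301 and 0.27 in calf 303. TLN1 did not pass, with 0.03 and 0.11 in the calves (limma, adjusted p = 0.559).

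Among 19 integrin chains 4 fell, 2 rose and 13 did not pass, which is 21.1% down and 10.5% up, beside 29.7% and 23.0% of all genes. All 19 fell when scaled to the hybridization controls, as did 89.4% of all genes. ITGAE, which with ITGB7 forms the receptor for E-cadherin on tissue lymphocytes, had ratios of 0.649 and 0.740 with APP, against 1.251 and 1.393 with PBS. ITGA4, which with ITGB7 forms the gut homing receptor and with ITGB1 a receptor for VCAM1, had 0.643 and 0.752 with APP, against 1.359 and 1.243 with PBS. ITGB7, the beta chain that ITGAE and ITGA4 share, had 0.652 and 0.760 with APP, against 1.230 and 1.275 with PBS. All 3 were low on both APP arrays with no overlap, and for each of them the APP value was lower in calf 301 than in calf 303.

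The 3 falls were close in size. ITGAE changed by -0.95 in calf 301 and -0.91 in calf 303 (mean -0.93 ± 0.02, SD, n = 2 calves, limma's adjusted p = 0.000247). ITGA4 changed by -1.08 and -0.73 (mean -0.90 ± 0.25, SD, n = 2 calves, limma's adjusted p = 0.000702). ITGB7 changed by -0.92 and -0.75 (mean -0.83 ± 0.12, SD, n = 2 calves, limma's adjusted p = 0.000507). Each gene has 1 probe set. By contrast ITGB1, the other partner of ITGA4, changed by 0.14 in calf 301 and -0.03 in calf 303 (limma, adjusted p = 0.684), with ratios of 0.991 and 0.985 with APP against 0.899 and 1.009 with PBS. ITGAE, ITGA4 and ITGB7 ranked 848th, 898th and 1034th by size among the genes that fell, so many larger falls were measured elsewhere on the array.

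ITGA5, the alpha chain of the fibronectin receptor, was the other chain that fell (-0.74 in calf 301 and -0.44 in calf 303, limma's adjusted p = 0.00405). Its 3 probe sets did not go together. One had ratios of 0.549 and 0.496 with APP, against 1.436 and 1.542 with PBS, a 2.85-fold fall and the largest of any member probe set (limma's adjusted p over probe sets = 0.000275). The other 2 probe sets averaged -0.11 and -0.15, and the one at -0.11 moved by -0.64 in calf 301 and 0.42 in calf 303. With the median of the 3 probe sets in place of the mean, ITGA5 changed by -0.37 and missed the threshold (limma, adjusted p = 0.0767).

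The chains of the vitronectin receptor, ITGAV and ITGB3, showed a like split. One of the 2 ITGAV probe sets had ratios of 0.718 and 0.767 with APP, against 1.794 and 1.228 with PBS, a 2.00-fold fall (limma's adjusted p = 0.00447), and the other changed by 0.09 in calf 301 and 0.56 in calf 303. One of the 4 ITGB3 probe sets had 0.673 and 0.736 with APP, against 1.275 and 1.260 with PBS, a 1.80-fold fall (limma's adjusted p = 0.00158), and the other 3 averaged between -0.20 and 0.15. As genes, ITGAV changed by -0.62 and -0.06 and ITGB3 by -0.19 and -0.22, and neither passed (adjusted p = 0.0839 and 0.11, limma).

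The leukocyte integrins that use ITGB2 changed by under 0.4 on the deposited scale. ITGB2 had ratios of 0.789 and 0.965 with APP, against 1.024 and 1.055 with PBS, a change of -0.38 in calf 301 and -0.13 in calf 303 (limma, adjusted p = 0.0839). Its partner ITGAL, the alpha chain of the receptor for ICAM1, rose by 0.28 and 0.36 (limma, adjusted p = 0.0272, or -0.53 when scaled to the hybridization controls). That rise rested on the probe set with 1.496 and 0.988 with APP against 1.001 and 0.708 with PBS, in which the treatments overlapped between calves, while the other changed by -0.01 and 0.23. ITGAM, the myeloid partner, changed by -0.03 and -0.21 (limma, adjusted p = 0.349), and ITGAD, also of that group, by -0.04 and 0.10.

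The remaining chains are those of epithelium, matrix adhesion and platelets. ITGB6, an epithelial partner of ITGAV, rose by 0.21 in calf 301 and 0.41 in calf 303 (limma, adjusted p = 0.0401), against -0.54 under hybridization-control scaling. ITGA7, the muscle laminin receptor chain, changed by 0.11 and 0.31, with 1 of its 3 probe sets up (0.48 and 0.50, limma's adjusted p = 0.0127). ITGA2B, the platelet chain, changed by 0.25 and -0.04. ITGA2, ITGA3, ITGA10, ITGB4 and ITGB5 had mean changes between -0.13 and 0.08, and none passed. The probe sets of ITGA10 stood apart, at -0.32 and 0.30, and neither passed.

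Of the 30 members with several probe sets, 9 had probe sets that differed by over 0.5 in mean change, and in 17 the lowest and highest lay on opposite sides of 0. No member had 1 probe set that rose and another that fell past the threshold. The other 34 members, CRTAM, CD44, ICAM1 and CADM1 among them, have 1 probe set each and could not be compared in this way. Over the 100 member probe sets 17 rose and 7 fell (16.3% and 23.6% of all 24016 probe sets), and the 7 that fell were 1 each for ITGA4, ITGA5, ITGAE, ITGAV, ITGB3, ITGB7 and CD99. For ITGA5, ITGAV, ITGB3 and CD99 the mean over probe sets thus lay far from the value of the probe set that fell. Levels are lost, so whether the flat probe sets lay near background was not tested.

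**Figure D3:**
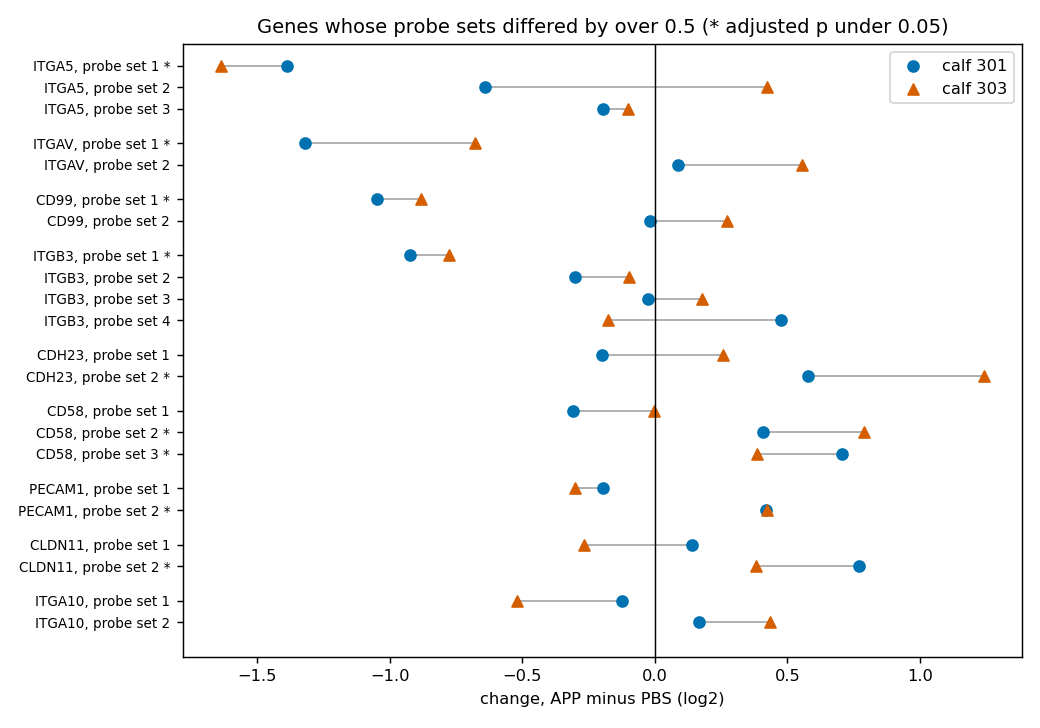
Change (APP minus PBS, log2) of each probe set in calf 301 (circles) and calf 303 (triangles) for the 9 adhesion genes whose probe sets differed by over 0.5, with an asterisk where limma's adjusted p over all probe sets was under 0.05. ITGA5, ITGAV, CD99 and ITGB3 each have 1 asterisked probe set below -0.6 in both calves, and their other probe sets lie between -0.64 and 0.56.

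Cadherins and claudins, the junction proteins of solid tissues, gave 6 small rises among 27 genes (22.2%, near the 23.0% of all genes). None of the 27 fell, beside 29.7% of all genes, and the median change was 0.11. Under hybridization-control scaling the median was -0.74 and all 27 lay below 0, as did 8655 of all 9155 genes. Among claudins, CLDN10 had ratios of 1.137 and 1.282 with APP, against 0.838 and 0.834 with PBS (log2 change 0.53, adjusted p = 0.00421, limma). CLDN4 had 1.142 and 1.171 with APP, against 0.786 and 0.837 with PBS (0.51, adjusted p = 0.00386, limma). CLDN15 rose by 0.31 in calf 301 and 0.26 in calf 303, and CLDN5, the claudin of vessel walls, by 0.59 and 0.20. Values of CLDN5 overlapped between the treatments, and its call was lost with no replicate block (limma, adjusted p = 0.213). Leaving out APP of calf 301 as well brought it to 0.09 (0.689).

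The cadherins that rose were CDH23, known from the hair cells of the inner ear, and CDH16, known from kidney. CDH23 rose by 0.19 in calf 301 and 0.75 in calf 303, from 1 of its 2 probe sets (0.58 and 1.24), and its call was lost with no replicate block (limma, adjusted p = 0.191). Leaving out APP of calf 303 as well brought it to 0.11 (0.58). CDH16 rose by 0.26 and 0.29 (limma, adjusted p = 0.0435), with probe sets at 0.14 and 0.42. CDH1, which encodes E-cadherin, the ligand of the ITGAE and ITGB7 pair, changed by 0.10 and -0.08 (limma, adjusted p = 0.938). The endothelial cadherin gene CDH5 changed by 0.06 and 0.22 and the neural CDH2 by -0.27 and 0.08. The other cadherin and protocadherin genes had mean changes between -0.07 and 0.28, and the other claudins between -0.23 and 0.26, and none passed. Among them CLDN11 had 1 probe set that rose by 0.58 (limma, adjusted p over probe sets = 0.0151) and 1 at -0.06. The endothelial selectin gene SELE changed by 0.24 and 0.04, and SELP, of platelets and endothelium, by 0.50 in calf 301 and -0.15 in calf 303, without passing.

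The changes in the 2 calves were also compared over all members. Across the 64 genes the change in calf 303 correlated with that in calf 301 with r = 0.93, and with r = 0.77 over the 62 genes without JAM2 and CRTAM, across genes that share the same 4 arrays and are not independent replicates. Without those 2 genes the SD of the changes was 0.38 in calf 301 and 0.35 in calf 303, while the SD of the difference between the calves over all 64 was 0.31 with APP and 0.20 with PBS. In 17 members the calves went in opposite directions, and none of these passed the test. The blocked fit takes its residual from the difference between the calves' changes. Such genes could thus hardly pass, and their absence among the calls says nothing on agreement.

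**Figure D4:**
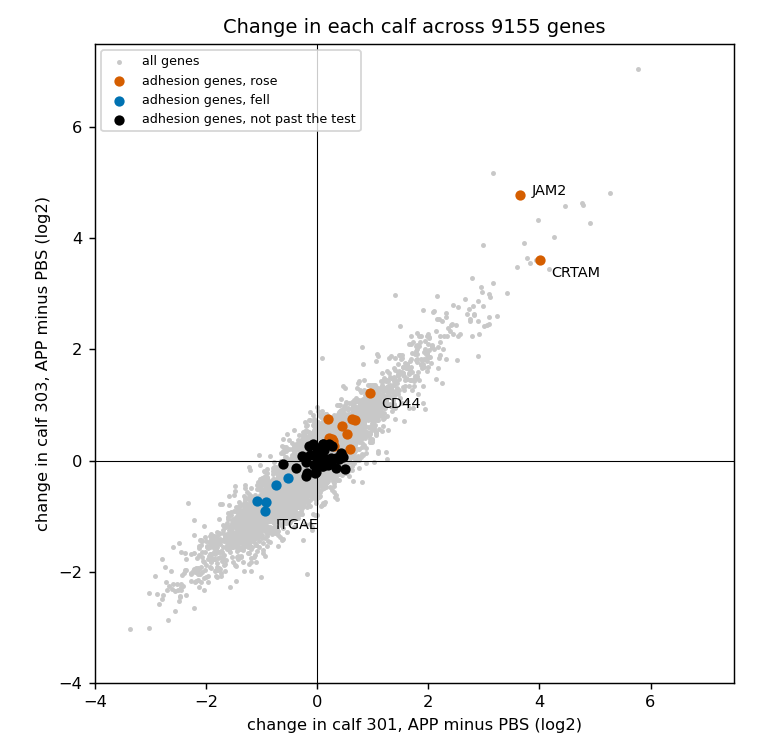
Change (APP minus PBS, log2) in calf 303 against the change in calf 301 for 9155 genes (grey) and the 64 adhesion genes, coloured by whether they rose, fell or did not pass limma's test. JAM2 and CRTAM sit among the largest rises of the array, and the other adhesion genes lie between -1.08 and 1.21.

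The calves themselves differed in 2 adhesion genes by the calf term of the same fit, beside 1.27% of all genes higher and 0.437% lower in calf 303. JAM3 was higher in calf 303 than in calf 301 by 0.83 with APP and by 0.64 with PBS (limma, adjusted p = 0.0227). F11R, another JAM gene, was lower in calf 303 by 0.76 with APP and by 0.61 with PBS (limma, adjusted p = 0.0261). Both calls were lost when the arrays were quantile normalized (adjusted p = 0.119 for JAM3 and 0.12 for F11R, limma), and that of F11R with the most variable probe set of each gene (0.108). Neither gene changed past the threshold with APP on the deposited scale. For JAM3 the gap came from 1 of its 2 probe sets, with ratios of 0.564 and 1.750 on the APP arrays of calves 301 and 303 and of 0.635 and 1.366 on their PBS arrays.

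Genes that act with these molecules were then counted in 7 lists. Beside them, 23.0% of all genes rose and 29.7% fell, or 3.12% and 89.4% when scaled to the hybridization controls. Of 34 genes of integrin activation and focal adhesions 11 fell and 7 rose (32.4% and 20.6%, near the shares of all genes). Their median was -0.14, against 0.01 over all genes. RASGRP2, the exchange factor that switches on RAP1 ahead of integrin activation, fell 3.63-fold (-1.91 in calf 301 and -1.82 in calf 303), and FYB1, an adaptor of T cell receptor to integrin signalling, fell 2.19-fold (-1.23 and -1.03). NEDD9, a docking protein of focal adhesions and lymphocytes, rose 3.49-fold (1.93 and 1.68), and ZYX, zyxin, 2.20-fold (1.01 and 1.27). The other 9 falls lay between -0.95 (GIT2) and -0.30 (CRK), and the other 5 rises, of FLNA, TNS1, RAPGEF1, BCAR1 and PARVB, between 0.31 and 0.53. Quantile normalized, 8 genes of the list fell and 8 rose. Scaled to the hybridization controls, 32 of the 34 fell and NEDD9 alone rose.

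Selectin ligand genes went both ways, with 6 of 14 up (42.9%, beside 23.0% of all genes) and 4 down (28.6%, beside 29.7%). Scaled to the hybridization controls, 2 rose and 10 fell. SELPLG, the P-selectin ligand, fell 2.25-fold, while CHST2, a sulfotransferase that acts on selectin ligands, was up 6.53-fold (log2 2.90 and 2.52 in the calves). The tyrosine sulfotransferase genes TPST1 (1.19 and 1.16) and TPST2 (0.76 and 0.86) rose, TPST2 only on scales other than that of the hybridization controls. MADCAM1, the gut vessel ligand of the ITGA4 and ITGB7 pair, rose by 0.37 and 0.22, again not when scaled to those controls. Of 17 lymphocyte adhesion partners 4 rose and 2 fell (23.5% and 11.8%), or 2 and 13 when scaled to those controls. By the calf term 5 of the 17 were higher in calf 303, beside 1.27% of all genes. That term called 2 genes higher in all when quantile normalized. The homophilic receptors SLAMF7 (2.27 and 2.00) and SLAMF1 (2.31 and 1.82) rose, as did ALCAM (0.78 and 0.93, or a mean of 0.00 when so scaled), while SLAMF6 fell (-1.72 and -0.79). CD2, the receptor for CD58, fell by 0.29.

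Of 17 tetraspanins, membrane organisers that associate with integrins, 4 rose and 4 fell (23.5% each, beside 23.0% and 29.7% of all genes). Scaled to the hybridization controls, 1 rose and 14 fell. TSPAN5 rose 4.15-fold (1.87 and 2.24), and CD9 (-1.82 and -1.59), TSPAN15 (-1.02 and -2.10) and TSPAN14 (-0.99 and -1.08) fell. TSPAN5, TSPAN14, TSPAN15, TSPAN17 and TSPAN33 are partners of the sheddase ADAM10 in humans and mice. Of these, TSPAN17 (-0.08) and TSPAN33 (-0.11) did not pass. ADAM10, which cuts CD44 and cadherins among others, fell 2.95-fold (-1.68 and -1.44), in a list of 10 sheddase and inhibitor genes of which 4 rose and 1 fell, or 0 and 7 when scaled to those controls. ADAM9 rose (1.08 and 1.22), as did the inhibitor TIMP3 (0.66 and 0.78) and MMP9 (0.66 and 0.47). So scaled, ADAM9 stood at 0.30 (limma, adjusted p = 0.0542), TIMP3 at -0.13 and MMP9 at -0.29.

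Of 25 matrix genes 7 rose and 1 fell (28.0% and 4.0%, beside 23.0% and 29.7% of all genes). Scaled to the hybridization controls, 1 (NID2) rose and 22 fell. Those furthest from 0 were NID2, a basement membrane protein (1.58 and 1.45), LAMA4, a laminin chain (-1.07 and -1.05), SPP1, osteopontin and a ligand of ITGAV and ITGA4 integrins (0.46 and 1.34), and HAS2, which makes the hyaluronan that CD44 binds (0.85 and 0.86). So scaled, SPP1 stood at 0.05 and HAS2 at 0.00, and neither passed. Of 12 junction scaffold genes 4 fell and 3 rose (33.3% and 25.0%). The membrane-actin linker RDX fell 2.93-fold (-1.61 and -1.49) and PALS1 2.02-fold (-0.94 and -1.08). The linkers EZR (0.55 and 0.52) and MSN (0.33 and 0.51) rose, as did PARD6B (0.26 and 0.61). Scaled to the hybridization controls, all 12 genes of that list fell.

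Directions above are those of the deposited scale, and they depended on it for small rises. The 14 probe sets of the hybridization controls bioB, bioC and bioD were higher on the APP arrays by 0.76 in calf 301 and 0.94 in calf 303. On arrays scaled to them, 12 of the 15 rises lay below 0. JAM2 (3.37) and CRTAM (2.96) still rose, and the 5 falls grew to between -1.78 and -1.27. Over the 11 alternative fits without that scaling, 8 members kept their call in every fit: JAM2, CRTAM, CD44, ICAM1, CADM1, ITGB7, ITGA4 and ITGAE. The other 12 missed the threshold in at least 1 of them. Of these, CDH23, CLDN5, CD58, ITGAL, ITGB6, CLDN15, CDH16, NECTIN2 and CD99 missed it with all arrays once the block was dropped. The fits that left out an array had no block either, and in them CLDN10 and CLDN4 missed the threshold without either PBS array and ITGA5 without PBS of calf 301.

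**Figure D5:**
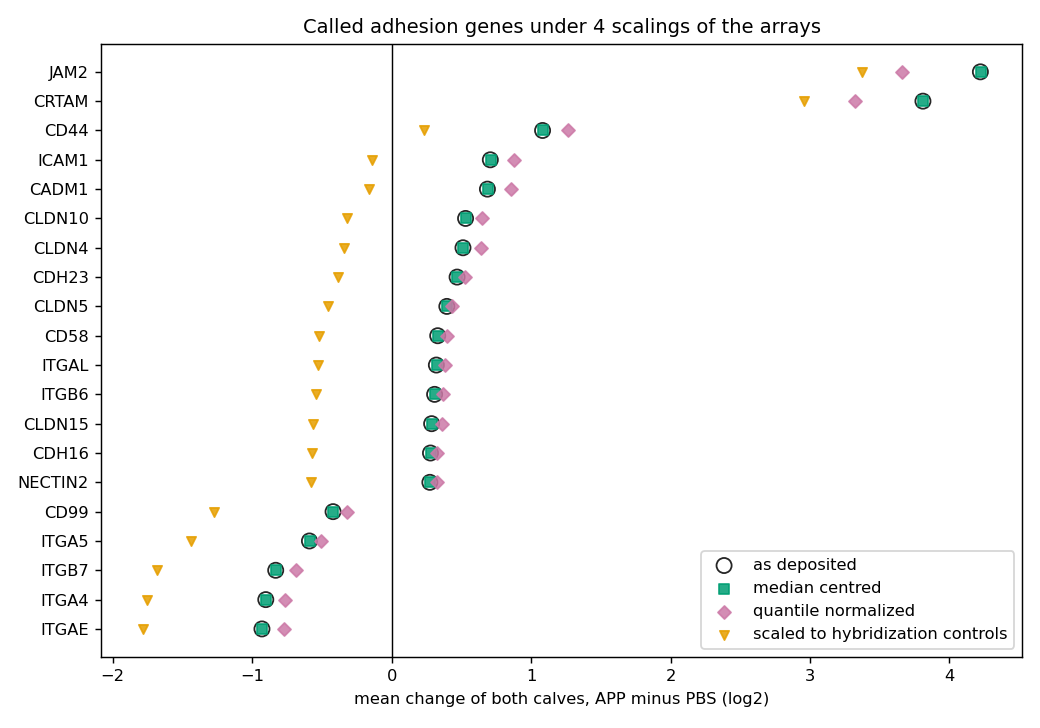
Mean change of both calves (APP minus PBS, log2) of the 20 adhesion genes past the threshold, as deposited (open circles), median centred (squares), quantile normalized (diamonds) and scaled to the hybridization controls (triangles). Under the last scaling JAM2, CRTAM and CD44 lie above 0 and the other 17 below it.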

How the data were processed

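Gene expression of 4 samples was measured on an Affymetrix bovine array after labelling with biotin, per the labels' protocols. The authors' deposited values are linear ratios, a unit found from the values and not stated in the sources used here: each probe set's signal over about its own median across the 4 arrays. RMA is named in the submitters' processing notes, without a version or options. No level, depth or detection call could be had, so the number of arrays limits the precision and no filter on low values was made.

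Analysis began from the log2 of these ratios, with no added normalization. Of 24128 probe sets 112 Affymetrix controls were left out. Of the other 24016, 13292 had 1 gene symbol in the platform table, 86 had several and 10638 had none. Symbols were updated by Entrez identifier through a RefSeq table of the assembly ARS-UCD2.0 (13263 found, 29 kept), which was used for names only. A gene is the mean log2 value of its probe sets.

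Samples were grouped by their titles. APP was compared with PBS by limma 3.58.1 in R 4.3.3 (lmFit and eBayes, two-sided) with the calf as a block, per gene and per probe set, with Benjamini-Hochberg adjustment over all features and a threshold of 0.05. Both treatments came from the same animals per the titles, hence the block, and the calf difference with APP correlated with that with PBS with r = 0.514 over probe sets. Residual degrees of freedom were 1, and prior ones were 5.86 for genes. Scaled to the hybridization controls, the prior ones were infinite, so every gene took the same spread. The blocked fit was tested on simulated data. SD values are over the 2 calves. An exact permutation test was not made, since 2 arrays against 2 cannot pass a threshold of 0.05.

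The members, gene lists and tests were chosen with earlier results of these data known. Every member past the threshold is named, as are T cell adhesion receptors in any case, with the up to 4 largest changes per list. Other genes named were chosen after their values were seen. Of 244 list symbols 175 matched by symbol and 5 by synonym, and 64 were not analysed here. Alternatives were other scalings (median centred, quantile, hybridization controls), no replicate block, each array left out, other ways to combine probe sets, and robust eBayes. Sequences of members were not analysed here.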

Additional observations from a re-analysis of the deposited data

Results flagged for a closer look

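ITGB1 changed in opposite directions in the calves, by 0.14 in calf 301 and -0.0347 in calf 303. The difference was not tested.

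The probe sets of the hybridization controls, which are outside the comparison of genes, were higher with APP than with PBS in both calves, by 0.76 in calf 301 and 0.94 in calf 303. Their part in the changes was not tested beyond the scaling given below.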

How the results depend on the processing

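Scaled to the hybridization controls, 286 genes rose and 8182 fell, against 2104 and 2717 as deposited, with 615 and 21653 probe sets and 2 and 59 adhesion genes, and rises were 3.38% of the genes called, against 43.6%. At least 2-fold changes in both calves, without a test, held for 320 genes up and 576 down (92 and 2852 under that scaling) and for 2 adhesion genes up and 0 down. Under that scaling the following turned below 0: ICAM1 (-0.14), CADM1 (-0.16), CLDN10 (-0.32), CLDN4 (-0.34), CDH23 (-0.38), CLDN5 (-0.46), CD58 (-0.52), ITGAL (-0.53), ITGB6 (-0.54), CLDN15 (-0.56), CDH16 (-0.57), NECTIN2 (-0.58), PECAM1 (-0.76) and ITGB1 (-0.80). With no replicate block 1399 genes, 2473 probe sets and 7 adhesion genes rose, and the lost calls were CDH23, CLDN5, CD58, ITGAL, ITGB6, CLDN15, CDH16, NECTIN2 and CD99. Leaving out 1 array, with no block, gave 745 to 1292 genes up and 1305 to 2012 down, 1155 to 2406 probe sets up and 2455 to 4281 down, and 5 to 9 adhesion genes up and 3 to 5 down. The fewest rises among adhesion genes (5) came without either PBS array, and the 3 falls without PBS of calf 301. The counts of genes higher and lower in calf 303 (116 and 40) were 66 and 16 median centred, 2 and 0 quantile normalized, 61 and 15 with the most variable probe set and 67 and 16 with the median of probe sets, with 532 lower when scaled to the hybridization controls and 25 lower without the less specific probe sets. The calf term could not be fitted in the alternatives with no block. The cause of these shifts was not tested. The lost levels leave it unknown which genes lay near background.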
